A study of Rattus norvegicus with 23 samples.

Results

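Median nerves repaired with a muscle-in-vein (MIV) graft were compared at day 3 with healthy median nerve across all gene identifiers of a rat RNA-seq count table. The comparison uses 8 of the 23 libraries of the series, 3 labelled MIV at day 3 and 5 of healthy nerve, and all 32545 gene rows. Adult female wild-type rats had the median nerve cut, with a gap of 8 mm between its ends. In the MIV animals the gap was bridged with a 10 mm graft, a segment of vein filled with skeletal muscle, and the regenerating nerve was collected after 3 days. The healthy nerves were untreated and are labelled day 0. Some results are set beside MIV at day 7 and beside a series labelled EV at day 3 and day 7 (n = 3 per group), also cut and repaired median nerves of wild-type rats, with no mention of MIV in their treatment label. Untreated wild-type adductor muscle and epigastric vein (n = 3 each) give the tissues of which such a graft is made. The labels do not say which part of a repaired nerve was collected, the graft alone or the graft with nerve stumps, so transcripts of the graft and of the stumps cannot be told apart. EV is not spelled out in the labels. Nor do they tie libraries to animals, and each p-value below therefore reflects how far these libraries differ among themselves, which may be technical.

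A gap in a peripheral nerve holds no nerve tissue when the graft is sewn in. In the first days after such a repair, blood-derived and inflammatory cells, fibroblasts and endothelial cells are known to enter the conduit, while Schwann cells leave the myelinating state and begin to migrate out of both stumps. In an MIV graft the muscle fibres keep the vein open, and their basal laminae serve as guides for the cells and axons that follow. Healthy nerve, by contrast, is rich in myelinating and non-myelinating Schwann cells, fibroblasts of the nerve sheaths and vessels, and axons contribute little of the messenger RNA extracted from it.

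Library totals were 15106525 to 17267954 counts at MIV day 3 and 13602942 to 16431590 counts in healthy nerve. At least 1 count was seen for 19854 and 20530 gene rows over the 3 and 5 libraries, a number that more libraries raise. Per library it was 17831 to 18067 in MIV day 3 and 17543 to 18023 in healthy nerve. After a filter on low counts, 15954 genes were tested. Replicates correlated across genes at 0.961 to 0.981 in MIV day 3 and at 0.976 to 0.980 in healthy nerve (Pearson r of log2 CPM, where CPM scales the counts of a library to a common total). MIV day 3 replicate 1 stood apart from its group: it lay farthest from the group median for 53.5% of genes, against 22.2% and 24.3% for replicates 2 and 3. The rows carry Ensembl identifiers, and the files and the reference gene table used here do not pair them with names. The labelled tissues could therefore not be checked against named marker genes, and the results are described by groups of genes defined from the healthy tissues, with 2 identifiers in each direction.

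At day 3 the MIV samples differed from healthy nerve in most of the genes tested. Of the 15954 genes tested with edgeR's quasi-likelihood test at a Benjamini-Hochberg adjusted p under 0.05, 4927 were higher in MIV day 3 (30.9%) and 4876 were lower (30.6%). Together these are 61.4% of the genes tested, and 6151 were not called. All 3 MIV libraries lay above all 5 nerve libraries for 4877 genes (30.6%) and below them for 4912 (30.8%), so the libraries of the groups did not overlap for 61.4% of genes. Among the called genes the median log2 fold change was 1.32 for those that rose and -1.52 for those that fell. Changes of more than 4-fold numbered 1724 upward (10.8% of genes tested) and 1954 downward (12.2%). The loss side had the longer tail: 389 genes were more than 64-fold lower and 220 were more than 64-fold higher, and beyond 1024-fold the numbers were 57 and 16. A test that asked for a change beyond 2-fold, in place of any change, called 2042 genes higher and 2339 lower.

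**Figure D1:**
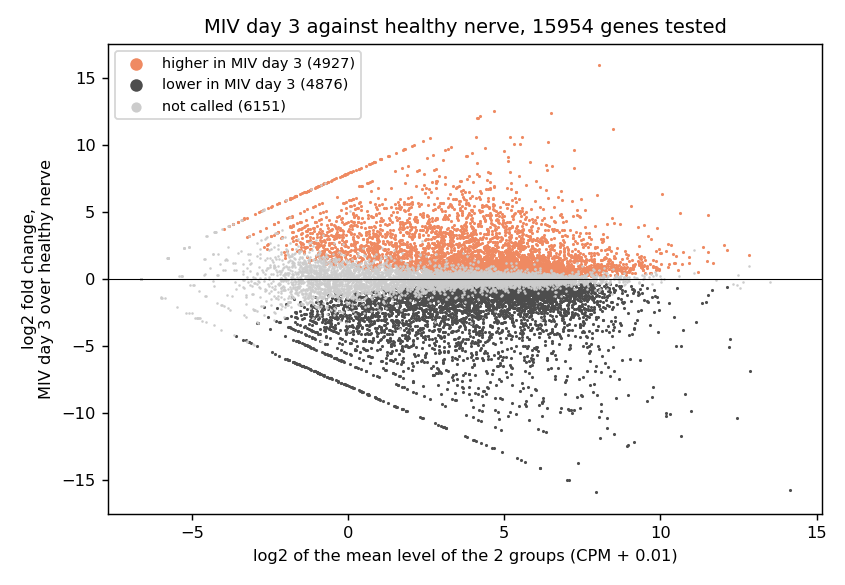
Each point is 1 of the genes tested, with the log2 mean level of MIV day 3 and healthy nerve in CPM on the horizontal axis and the log2 fold change of MIV day 3 over healthy nerve on the vertical axis. Orange points are the 4927 genes called higher and dark points the 4876 called lower; straight diagonal edges are genes with no count in one of the groups, whose fitted values depend on the prior count.

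The change was present at every level of abundance. Among genes with a mean of at least 100 CPM over both groups, 649 of 1685 were higher (38.5%) and 650 were lower (38.6%). Between 10 and 100 CPM, 34.1% of 8066 genes were higher and 30.8% lower. Below 1 CPM, where counts are few, 20.0% of 1992 genes were higher and 19.4% lower. Of the 100 most abundant genes of MIV day 3, 40 were also among the 100 most abundant of healthy nerve. Of the MIV 100, 74 were higher than in nerve and 6 lower, and of the nerve 100, 16 were higher in MIV day 3 and 65 lower, directions that the choice by level favours.

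Counts moved with these genes. The 1724 genes more than 4-fold higher took 15.5% ± 1.42 (SD, n = 3) of the counts at MIV day 3 and 1.81% ± 0.223 (SD, n = 5) in healthy nerve. The 1954 genes more than 4-fold lower took 1.87% ± 0.0805 (SD, n = 3) at MIV day 3 and 28.3% ± 1.30 (SD, n = 5) in healthy nerve. These shares describe genes chosen on the same libraries and carry no test. In bulk tissue, fewer cells of a type and less RNA per cell cannot be told apart.

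The number of genes in use was close between the groups. Genes with at least 1 CPM, here scaled by plain library totals, numbered 13374 ± 38.8 (SD, n = 3) in MIV day 3 and 13542 ± 77.4 (SD, n = 5) in healthy nerve. The difference was -168 (exact permutation test, two-sided, p = 0.0357, which no split of 3 and 5 libraries can undercut, with adjusted p = 0.107 over 3 such measures). The 100 most abundant genes took 26.3% ± 1.76 (SD, n = 3) and 29.2% ± 1.56 (SD, n = 5) of the counts (exact permutation p = 0.107, adjusted p = 0.143). The number of genes that made up the upper 50% of counts was 668 ± 51.2 (SD, n = 3) and 604 ± 52.03 (SD, n = 5; exact permutation p = 0.143, adjusted p = 0.143).

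The 2 largest losses among abundant genes were both of nerve-enriched genes, those more than 2-fold above both muscle and vein in healthy tissue at an edgeR adjusted p under 0.05. ENSRNOG00000003171 was the most abundant gene of healthy nerve. It stood at 0.805, 1.14 and 0.144 CPM in MIV day 3 replicates 1 to 3, and at 26873, 29520, 39210, 29795 and 56253 CPM in healthy nerve replicates 1 to 5. The groups were far from overlapping: 16, 20 and 3 reads were counted per MIV library, against 436758 to 792249 per nerve library. Its log2 fold change was -15.67 ± 2.02 (SE; edgeR adjusted p = 2.11e-06). This one gene took 2.96%, 3.25%, 4.10%, 3.24% and 5.77% of the counts in healthy nerve replicates 1 to 5. By group mean it ranked 13797th at MIV day 3. Healthy muscle held 65.1 CPM ± 60.1 and healthy vein 55.8 CPM ± 7.80 of it (SD, n = 3 each), and every MIV day 3 library lay below every library of these tissues (edgeR adjusted p = 0.000816 against muscle and 0.00154 against vein).

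ENSRNOG00000048139 had no count in any MIV day 3 library and 434.7 to 595.8 CPM in the 5 nerve libraries, with a median of 484 CPM. Taking 3 counts over the MIV group as the limit, it was at least 9595-fold lower in MIV day 3 (edgeR adjusted p = 8.04e-11). EV day 3 held 1 count in 1 of 3 libraries. Healthy muscle and vein carried it at 1.03 CPM ± 0.938 and 1.09 CPM ± 0.291 (SD, n = 3 each).

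The 2 largest rises among abundant genes were of genes with no count in healthy nerve. The fitted fold change of such genes depends on the prior count, so a ranking by fold change favours them. ENSRNOG00000008536 stood at 1089, 321 and 169 CPM in MIV day 3 replicates 1 to 3 and had no count in any of the 5 nerve libraries, so it was at least 13850-fold higher (3 counts over the nerve group as the limit; edgeR adjusted p = 2.36e-07). Replicate 1 was the highest of the MIV libraries, and without it the limit was 6447-fold. The lowest library still held 3528 reads. Healthy muscle carried it at 52.2 CPM ± 34.8 (SD, n = 3), and every MIV day 3 library lay above every healthy muscle library, whose highest value was 92.4 CPM (edgeR adjusted p = 0.00453 for MIV day 3 against muscle). EV day 3 held 1 read in each of 2 libraries and none in the other.

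ENSRNOG00000006142 stood at 101, 27.2 and 22.4 CPM in the 3 MIV day 3 libraries and had no count in healthy nerve, which made it at least 1325-fold higher (edgeR adjusted p = 1.23e-05). Without replicate 1, the highest, the limit was 652-fold. Its level in healthy muscle was 1.004 CPM ± 0.526 (SD, n = 3), below each of the MIV day 3 libraries (edgeR adjusted p = 0.00103), and healthy vein had none. EV day 3 held 7 reads in replicate 2 and none in replicates 1 and 3. Both genes were thus high in all MIV day 3 libraries and at most 0.448 CPM in EV day 3, but neither passed the direct test of MIV day 3 against EV day 3 in the 12 repaired libraries (log2 fold change 13.37 ± 1.75 SE with edgeR adjusted p = 0.132 for ENSRNOG00000008536, and 8.34 ± 1.53 SE with edgeR adjusted p = 0.150 for ENSRNOG00000006142).

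**Figure D2:**
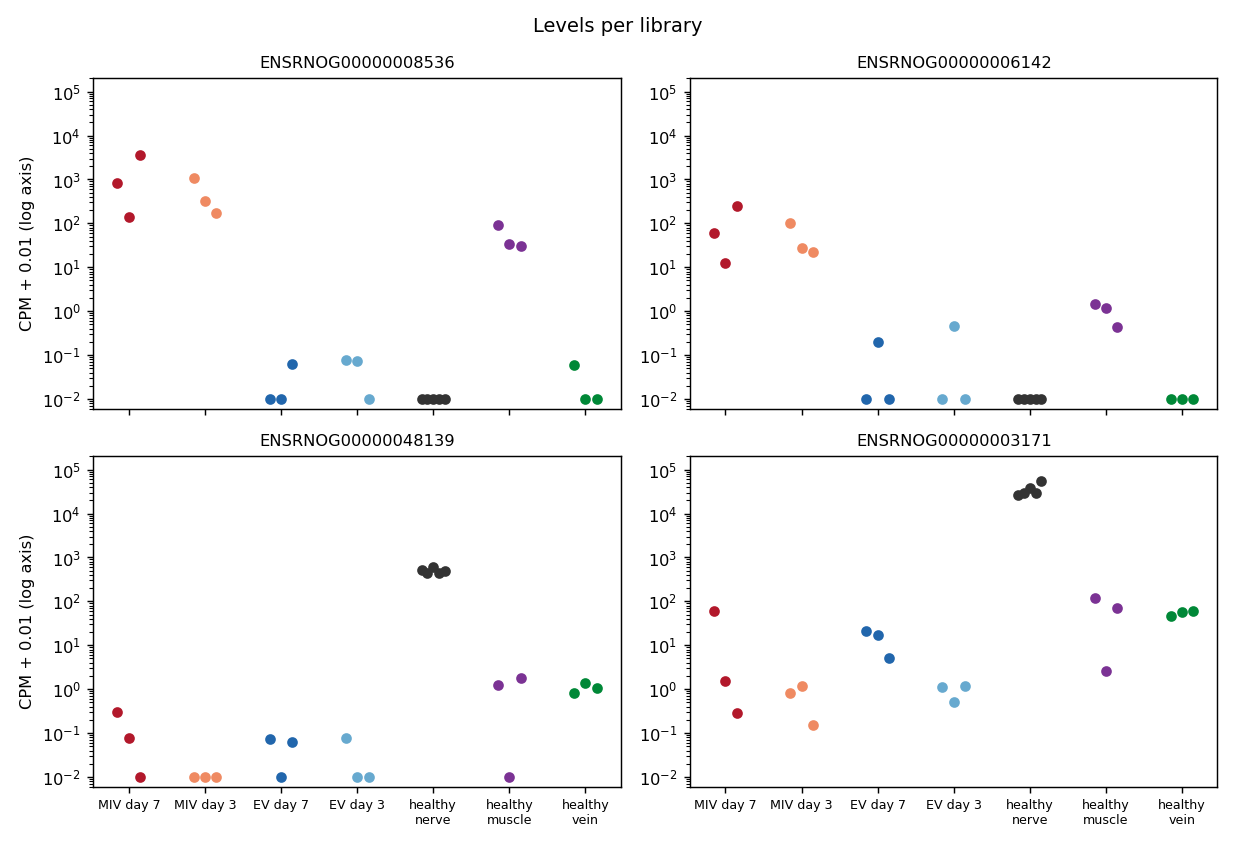
Level of the 4 identifiers in every library of each group (CPM + 0.01, log axis; 1 point per library), so that a point at the bottom is a library with no count. ENSRNOG00000008536 and ENSRNOG00000006142 are present in the MIV and muscle libraries and at most 0.448 CPM in the other libraries, and the 2 lower panels show genes that are high in healthy nerve and at 1.14 CPM or less in MIV day 3.

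Few genes with no count at all in 1 group were well expressed in the other, a strict measure in which a single read takes a gene out. The 9099 gene rows with no count in any library of the series are part of both totals below. Of 12015 gene rows with no count in any healthy nerve library, 62 reached a mean of 1 CPM in MIV day 3, 7 reached 10 CPM and 1 reached 100 CPM. Of 12691 gene rows with no count in any MIV day 3 library, 98 stood at 1 CPM or more in healthy nerve, 28 at 10 CPM or more and 6 at 100 CPM or more.

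The graft is made of vein and muscle, so each called gene was also set against healthy muscle and vein in the same fit. Of the 4927 genes that rose over nerve, 2070 were also higher in MIV day 3 than in both muscle and vein (42.0% of the rises, and 13.0% of all genes tested). These had a median log2 fold change over nerve of 2.05. A further 1230 were above vein but not above muscle, 752 above muscle but not above vein, and 875 above neither, with medians of 0.94, 1.13 and 0.87. Of the rises, 1008 were lower in MIV day 3 than in healthy muscle and 159 were lower than in vein. All these comparisons share the MIV day 3 libraries. Over all genes, 33.5% were higher in MIV day 3 than in muscle and 33.0% lower (66.4% in all), and 28.1% were higher than in vein and 25.8% lower (53.9% in all).

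Losses had a different split. Of the 4876 genes that fell, 1494 were also below both muscle and vein (30.6% of the falls, and 9.36% of all genes tested). Another 1343 were below vein but not below muscle, 733 below muscle but not below vein, and 1306 below neither. Of the falls, 864 were higher in MIV day 3 than in healthy muscle and 288 were higher than in vein.

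Nerve-enriched genes fell more often than they rose. Of 1485 such genes, 1166 fell (78.5%, against 30.6% of all genes), 100 rose (6.73%, against 30.9%) and 219 were not called, with a median log2 fold change of -2.68 beside 0.01 over all genes tested. The 1954 genes more than 4-fold lower held 892 nerve-enriched genes, 115 muscle-enriched, 137 vein-enriched and 810 in none of these groups. Because this group was chosen as high in the same nerve libraries, its direction is favoured by the choice. Nerve-enriched genes took 6.17%, 6.60% and 6.40% of the counts in MIV day 3 replicates 1 to 3, and 25.2%, 25.7%, 27.1%, 25.04% and 28.7% in healthy nerve replicates 1 to 5. Every MIV library lay far below every nerve library and above the 3.63% to 4.17% that these genes took in healthy vein and the 0.646% to 0.730% in healthy muscle.

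A stricter group of 69 nerve-restricted genes had at least 10 CPM in healthy nerve and under 0.5 CPM in both muscle and vein. Of these, 68 fell (98.6%, against 30.6% of all genes), a direction that this choice of genes favours too. Their median level at MIV day 3 was 0.266% of that in healthy nerve, with quartiles of 0.0282% and 0.728%. Summed, they stood at 30.6, 36.8 and 34.2 CPM in the 3 MIV day 3 libraries and at 2181 to 2554 CPM in the 5 nerve libraries. EV day 3 held 15.5, 34.6 and 17.8 CPM, which overlaps MIV day 3. In 53 of the 69 genes the MIV level was below 1% of the nerve level, whereas 3 kept 10% or more, the highest at 66.1%.

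Muscle-enriched genes as a whole moved in both directions. Of 2842 genes more than 2-fold above nerve and vein in healthy muscle, 1110 were higher in MIV day 3 than in nerve (39.1%) and 524 were lower (18.4%). Their median log2 fold change was 0.26. Without MIV day 3 replicate 1, 891 were higher and 528 lower. The muscle-enriched group was selected as low in the nerve libraries, which favours a rise. Defined without any nerve library, as more than 2-fold above vein alone, 3625 muscle genes split into 1219 higher (33.6%) and 931 lower (25.7%), with a median of 0.11, shares near the 30.9% and 30.6% of all genes. The muscle-enriched genes took 21.7%, 18.3% and 18.5% of the counts in MIV day 3 replicates 1 to 3 and 14.01% to 17.1% in healthy nerve, without overlap, beside 79.9% to 80.6% in healthy muscle. The genes chosen without nerve took 25.8%, 22.4% and 22.4% in MIV day 3 replicates 1 to 3 and 19.4% to 22.7% in healthy nerve, so here the groups overlapped and only replicate 1 lay above all nerve libraries.

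Genes nearly confined to muscle among the healthy tissues were examined next. The 60 muscle-restricted genes had at least 100 CPM in healthy muscle and under 0.5 CPM in both nerve and vein. Of these, 46 were higher in MIV day 3 than in nerve (76.7%, against 30.9% of all genes) and none was lower (30.6% of all genes), with 32 called without MIV day 3 replicate 1. Their choice as nearly absent from nerve leaves little room for a fall. Their sum was 1546, 322 and 256 CPM in MIV day 3 replicates 1 to 3 and 4.49 to 6.79 CPM in the 5 nerve libraries. Replicate 1 was the highest, and the other 2 also lay far above healthy nerve. The level was still a small part of that in muscle, where the sum was 52674 to 56742 CPM: per gene the median was 0.604% of the muscle level, with quartiles of 0.169% and 2.19% and a highest value of 35.7%. With the minimum lowered to 10 CPM in muscle, 138 genes qualified, and 4 of them stood above their healthy muscle level in MIV day 3 by group mean. In EV day 3, 1 of the 138 did. The sum of the 138 was 3978, 973 and 671 CPM in MIV day 3 replicates 1 to 3, so replicate 1 weighs heavily in these means.

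The 60 genes were chosen on healthy tissue alone, so their sum can be set side by side in MIV and EV. The sum was 8.60, 29.6 and 8.66 CPM in EV day 3 replicates 1 to 3, so the lowest MIV library (256 CPM) lay above the highest EV library. At least 10 counts were seen for 52, 41 and 35 of the 60 genes in MIV day 3 replicates 1 to 3. In EV day 3 replicates 1 to 3 the numbers were 3, 10 and 3. In the 12 repaired libraries 53 of the 60 could be tested, most of them kept by the filter through MIV libraries, where they are high. That favours a positive direction in the counts over the 53 genes that follow. Of the 53, 52 had a positive log2 fold change of MIV day 3 over EV day 3 (98.1%), where 45.8% of all genes did. The median was 5.37. All 3 MIV libraries lay above all 3 EV libraries for 40 of the 53 genes, against 7.17% of all genes, and below them for 1, against 4.05% of all genes. No gene of the 53, and none of the 15036 tested, passed edgeR's quasi-likelihood test at an adjusted p under 0.05. At an unadjusted p under 0.05, 37 of the 53 were higher and none lower, against 558 (3.71%) higher and 217 (1.44%) lower over all genes. DESeq2 called 31 muscle-restricted genes higher, among 234 genes higher in all (1.56%), and edgeR fitted over all 23 libraries called 17, among 154 (0.965%).

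**Figure D3:**
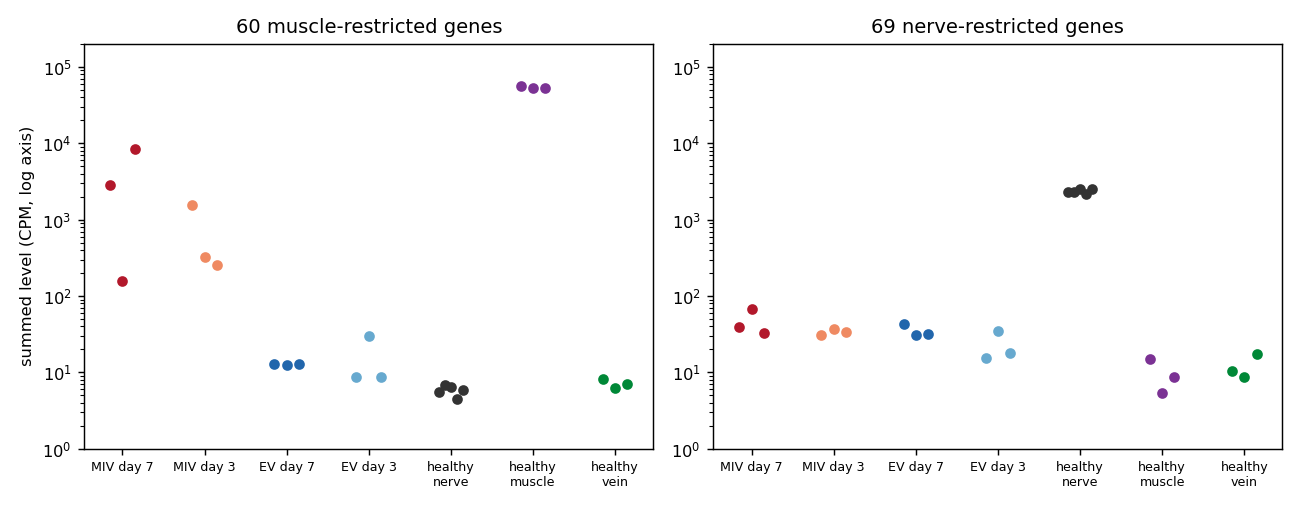
Summed level in CPM (log axis) of the 60 muscle-restricted genes and the 69 nerve-restricted genes, with 1 point per library. MIV day 3 stands at 256 to 1546 CPM for the muscle genes, above healthy nerve (4.49 to 6.79 CPM) and below healthy muscle, and at 30.6 to 36.8 CPM for the nerve genes, far below healthy nerve.

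At day 7 the muscle-restricted genes varied widely among MIV libraries. Their sum was 2859, 155 and 8539 CPM in MIV day 7 replicates 1 to 3, against 1546, 322 and 256 CPM in MIV day 3 replicates 1 to 3, and the ranges overlapped. Of 53 genes tested, 7 were higher at day 7 than at day 3 and none lower, where 7.39% of all genes rose and 8.09% fell. The filter kept most of the 53 through MIV libraries, which can favour the day with the higher level. That count of 7 rested on single libraries. Of the day 3 libraries, leaving out replicate 2 or 3 gave 0 and leaving out replicate 1 gave 17. Of the day 7 libraries, leaving out replicate 3 gave 1 and leaving out replicate 2 gave 28. ENSRNOG00000008536 averaged 1520 CPM ± 1820 at MIV day 7 and 526 CPM ± 493 at MIV day 3 (SD, n = 3 each). Its log2 fold change was 1.57 ± 0.96 (SE) with an edgeR adjusted p of 0.282. ENSRNOG00000003171 stood at 61.7, 1.56 and 0.281 CPM in MIV day 7 replicates 1 to 3, against 0.805, 1.14 and 0.144 CPM in MIV day 3. Day 7 replicate 1 was far above the rest, replicate 2 slightly above the day 3 range and replicate 3 inside it (log2 fold change 4.97 ± 1.61 SE, edgeR adjusted p = 0.0616).

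Vein-enriched genes moved in both directions. Of 1127 genes more than 2-fold above nerve and muscle in healthy vein, 412 were higher in MIV day 3 than in nerve (36.6%) and 274 were lower (24.3%), against 30.9% and 30.6% of all genes. Their log2 fold changes had a median of 0.27 and wide quartiles of -1.03 and 1.52. They too were selected as low in nerve. Their share of counts was 5.22%, 6.38% and 6.26% in MIV day 3 replicates 1 to 3 and 3.38% to 3.99% in healthy nerve, without overlap, beside 16.3% to 18.7% in healthy vein. In a set defined without nerve, as more than 2-fold higher in healthy vein than in muscle, 4307 genes had 1146 rises (26.6%) and 1652 falls (38.4%), with a median of -0.26. This set was abundant in healthy nerve too: it took a mean of 34.4% of the counts there, 42.3% in healthy vein and 2.98% in healthy muscle. Its share of counts ran the other way from that of the vein-enriched genes, also without overlap. It was 26.5%, 27.8% and 28.3% in MIV day 3 replicates 1 to 3 and 33.5% to 35.04% in healthy nerve. The 11 vein-restricted genes (at least 10 CPM in vein, under 0.5 CPM in nerve and muscle) stood at a median of 1.33% of their vein level at MIV day 3, and 3 of the 11 passed as higher than in nerve (27.3%, near the 30.9% of all genes).

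**Figure D4:**
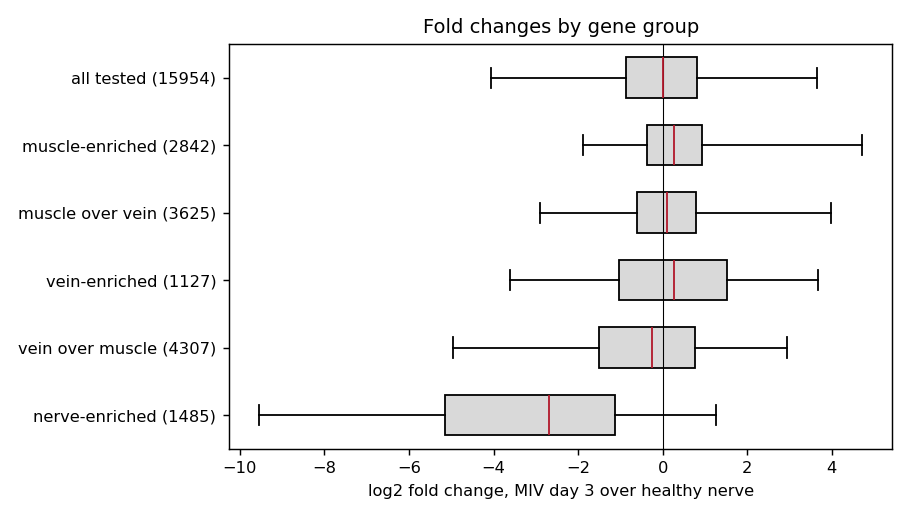
Log2 fold change of MIV day 3 over healthy nerve for each gene group, with the number of genes in brackets; boxes span the quartiles with the median inside, and whiskers run from the 5th to the 95th percentile of genes. The nerve-enriched box lies below 0 in full (median -2.68), and the muscle and vein boxes straddle 0.

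**Figure D5:**
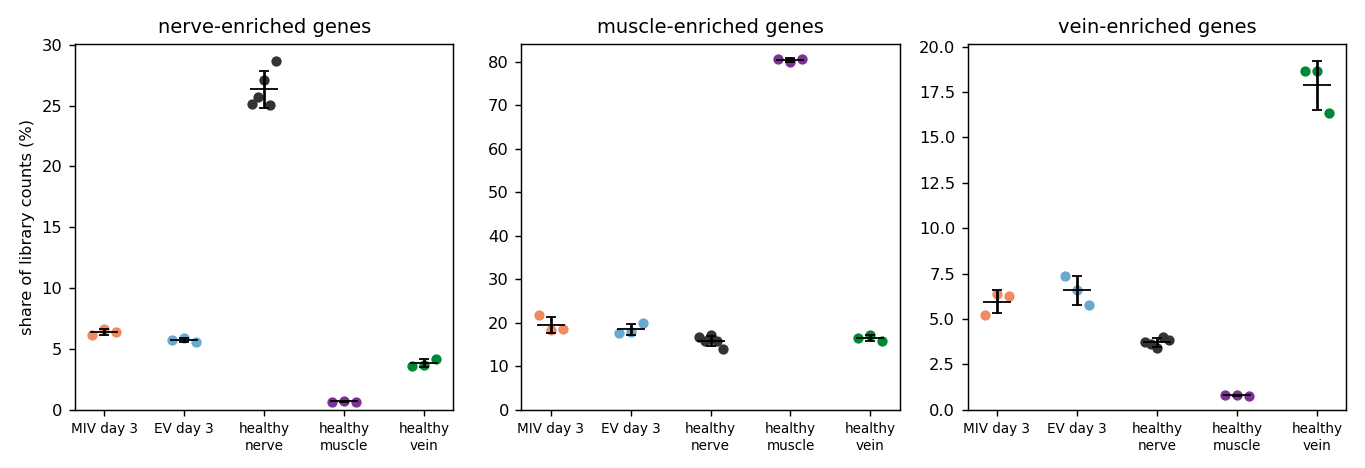
Share of library counts (%) taken by genes enriched in nerve, muscle or vein, with 1 point per library and the mean ± SD as a bar. MIV day 3 and EV day 3 lie close to each other in each panel beside the healthy tissues. Nerve-enriched genes took 6.17% to 6.60% in MIV day 3 and 5.57% to 5.87% in EV day 3, without overlap, against 25.04% to 28.7% in healthy nerve.

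EV day 3 gave a comparison of the same size against the same 5 nerve libraries: 4783 genes higher (30.0%) and 4899 lower (30.7%), 60.7% together. Since the nerve libraries are shared, the values of the gene groups are given side by side only. The median log2 fold change over nerve was -2.68 in MIV day 3 and -2.81 in EV day 3 for nerve-enriched genes, 0.26 and 0.10 for muscle-enriched genes, and 0.27 and 0.57 for vein-enriched genes. The number of muscle-enriched genes called higher than in nerve was 1110 in MIV day 3 and 883 in EV day 3, and that of vein-enriched genes was 412 and 471. Without MIV day 3 replicate 1, the MIV numbers were 891 muscle-enriched and 401 vein-enriched genes, from a fit with fewer MIV libraries. The muscle-enriched number was then close to that of EV day 3.

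Some transcripts were close to absent from all 3 healthy tissues. Of 16929 gene rows under 0.5 CPM on average in nerve, muscle and vein, 274 reached a mean of 1 CPM in MIV day 3, 46 reached 10 CPM and 1 reached 100 CPM, the highest at 170 CPM. In EV day 3 the numbers were 256, 41 and 1. Per library, the number at 10 CPM or more was 44, 45 and 45 in MIV day 3 and 0 in each of the 5 nerve libraries, a limit that the choice of the genes sets for nerve but not for the repaired groups. Of the 604 that could be tested in the repaired libraries, 305 had a positive log2 fold change of MIV day 3 over EV day 3, with a median of 0.00, and edgeR called none. At MIV day 7 against MIV day 3, 93 of the 604 were lower and 16 higher (edgeR adjusted p under 0.05), where 8.09% and 7.39% of all genes were (15.5% together), and the median log2 fold change of day 7 over day 3 was -0.33. The day 7 libraries did not move together. The number of genes at 10 CPM or more was 8, 49 and 14 in MIV day 7 replicates 1 to 3, against 44, 45 and 45 in MIV day 3, and the summed level was 1993, 3194 and 1443 CPM, against 2079, 2307 and 2426 CPM. Day 7 replicate 2 thus lay above every day 3 library and the other 2 below. By group mean, 297 genes reached 1 CPM at MIV day 7 and 274 at MIV day 3. With the replicate number as a block, edgeR called 0 of all genes in either direction between these days (2617 at an unadjusted p under 0.05).

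The MIV day 3 libraries differed among themselves, and replicate 1 in muscle-enriched genes, which are 2842 of the 15954 tested. Such genes were frequent among the variable genes highest in replicate 1, but not among those highest in replicate 2 or 3. The median SD of log2 CPM per gene was 0.27 in MIV day 3 and 0.22 in healthy nerve, and 978 genes (6.13%) and 514 genes (3.22%) had an SD over 1. Of the 978, replicate 1 was the highest library for 523, and 235 of these were muscle-enriched. Replicate 2 was highest for 296 of them, 14 of which were muscle-enriched and 55 vein-enriched, and replicate 3 for 159, with 5 muscle-enriched. The part of this variation in the counts of rises was not tested beyond leaving each library out: between 4445 and 4759 genes were higher and between 4384 and 4732 lower when any 1 of the 8 libraries was left out. Of the genes called with all libraries, 3843 that rose and 3887 that fell were called in all 8 of those fits.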

How the data were processed

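Poly-A messenger RNA from 350 ng of total RNA per sample was made into non-directional libraries, per the labels' protocols, so strands cannot be told apart. CASAVA and HISAT2 are named in the submitters' processing notes. Which counter, genome build and annotation were used is not given in the sources used here. Reads shared by near-identical genes may be split in unknown ways. The authors deposited raw counts per Ensembl gene identifier. All 23 columns matched a library title and 0 were left over.

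edgeR 4.0.16 (under R 4.3.3) fitted the counts with 1 coefficient per group, after filterByExpr (minimum count 10, minimum total 15) and TMM scaling. Tests were glmQLFTest on a robust glmQLFit, and p-values were adjusted by Benjamini-Hochberg. Comparisons with healthy tissues used all 23 libraries (15954 genes), with a biological coefficient of variation of 31.4%. MIV day 3 was set against EV day 3 and MIV day 7 in a fit of the 12 MIV and EV libraries (15036 genes), where it was 37.1%. CPM uses TMM-scaled library sizes, except in the number of genes in use per library, where plain library totals were used. Log2 CPM used a prior count of 2. Enriched genes exceeded each of the other healthy tissues by over 1 log2 unit at an adjusted p under 0.05. Limits from 3 counts cover counting error only. Permutation tests used scipy 1.17.1, and DESeq2 1.42.0 was an alternative. The fits were tested on simulated counts.

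The gene groups were chosen with earlier results of these data known. The 50 lists prepared by symbol could not be measured, since 0 of 32545 identifiers matched the reference table. The naming rule also asked for a gene symbol, a clause that no identifier could meet. Without it, the identifiers named are the 2 with the largest log2 fold change in each direction among genes with an adjusted p under 0.05, at least 10 CPM in the higher group and no overlap between libraries. Alternatives were other scaling factors, filters, tools, sets of libraries, a replicate block, a minimum fold change and each library left out.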

Additional observations from a re-analysis of the deposited data

How the results depend on the processing

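The comparison of MIV day 3 with healthy nerve kept its counts within 1.5 times under DESeq2, other scaling factors, other filters, a fit of the 8 libraries alone and each omission of 1 library (4445 to 4759 higher and 4384 to 4732 lower). A minimum change of 2-fold in the test itself gave 2042 higher and 2339 lower. TMM scaling that left out the muscle-enriched genes, an alternative chosen after seeing the data, put the median over all genes at 0.09 (log2 fold change) and gave 5312 higher and 4487 lower. The replicate number as a block gave 4004 higher and 4032 lower over the 8 libraries, of which 3881 and 3931 were among the genes called without it. Same-numbered libraries did not deviate together (correlations of -0.02, -0.0048 and -0.14), and 1 of 3 MIV day 3 libraries correlated best with its own number in nerve. So few correlations cannot decide whether same-numbered libraries share an animal or a batch, and the labels do not tie libraries to animals. The 4 identifiers kept their direction and passed under every alternative run (largest adjusted p = 0.000657). The planned scaling without muscle lists was not run, because no symbol could be matched.

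For MIV day 3 against EV day 3, edgeR called 0 genes in each direction, and 0 in every fit that left out 1 library. DESeq2 gave 234 higher and 15 lower, the fit over 23 libraries 154 and 6, and the replicate block within 6 libraries 3 and 0. For MIV day 7 against MIV day 3 (1111 higher, 1216 lower), DESeq2 gave 2056 higher, the 23 libraries 2281 higher and 1872 lower, and the replicate block within 6 libraries 0 and 0. Leaving out 1 library gave 262 to 1847 higher and 542 to 1722 lower, with the lowest counts without MIV day 3 replicate 3 (262 and 542) and replicate 2 (334 and 604). Without MIV day 7 replicate 1, 637 were higher, and without MIV day 7 replicate 2, 1847. The causes were not tested.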
